A study of Homo sapiens with 21 samples.

Results

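SPRY1, SPRY2 and SPRY4 (Sprouty), SPRED1 and SPRED2, and the phosphatase genes DUSP4, DUSP5 and DUSP6 are 8 of the 19974 protein-coding genes on the autosomes and the X chromosome. They were chosen by name, as feedback genes of the ERK pathway. A region of a deposited list was counted near one of them when its midpoint lay in the gene body or within 50 kb of it on the hg38 genome. By this rule 22 regions bound by HOXD13-HA, of 29176 in that list, fell near the 8 genes.

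The pathway from RAS through RAF and MEK to ERK carries growth signals and is driven by mutations in many melanomas. ERK activity raises the transcription of its own inhibitors, and the 8 genes encode such inhibitors. Sprouty and SPRED proteins act upstream, where they restrain the activation of RAS and RAF, and SPRED proteins do so by bringing the RAS inhibitor neurofibromin to the membrane. The DUSP proteins act downstream by removing phosphates from ERK, DUSP6 in the cytoplasm and DUSP4 and DUSP5 in the nucleus.

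The study used 4 established lines of human melanoma, A375, SKMEL-147, SKMEL-5 and 501mel, kept in flat culture for 72 h. The A375 libraries carry the names HOXD13-HA (the HOX transcription factor HOXD13, known from limb development, with an HA tag), shH2 and shH3 (hairpins), shNTC (read as the non-targeting hairpin) and GFP. The protocol gives 1 µg/ml doxycycline to switch on hairpins or overexpressed constructs, with or without, and the labels do not say which cultures received it. The design text speaks of silencing or overexpressing HOXD13, while the labels give shH2 and shH3 no target. No label says whether a library came from ChIP-seq or CUT&Tag, or whether a line with a construct is 1 clone. The other lines carry no construct in their labels, although the region names of the 501mel ATAC list contain siNTC.

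Of the 21 samples, 15 came with a list of regions and were used. These were 8 lists of histone H3 acetylated at lysine 27 (K27ac, found at active promoters and enhancers), 4 of open chromatin (ATAC), 2 of the insulator protein CTCF and 1 of HOXD13-HA. The other 6 samples, IgG and A375-GFP HA libraries, were not analysed here. Lists held 29176 (HOXD13-HA) to 163102 (SKMEL-147 ATAC) regions. Each condition had 1 library, except shNTC K27ac with replicates 1 and 2, and no test between conditions was made. No read counts are given in the lists, and the depth of each library is therefore unknown. Melanocyte lineage markers with K27ac at their start numbered 6 of 6 in 501mel and SKMEL-5, 3 of 6 in A375-GFP and 1 of 6 in SKMEL-147. Markers of undifferentiated melanoma numbered 0 of 4, 0 of 4, 3 of 4 and 3 of 4 in the same order of lines.

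The 8 genes had K27ac in nearly every line, and the exceptions differed by gene. The number of listed regions per gene and library is plotted first, followed by maps of SPRY1, SPRY4, SPRED2 and DUSP5.

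**Figure D1:**
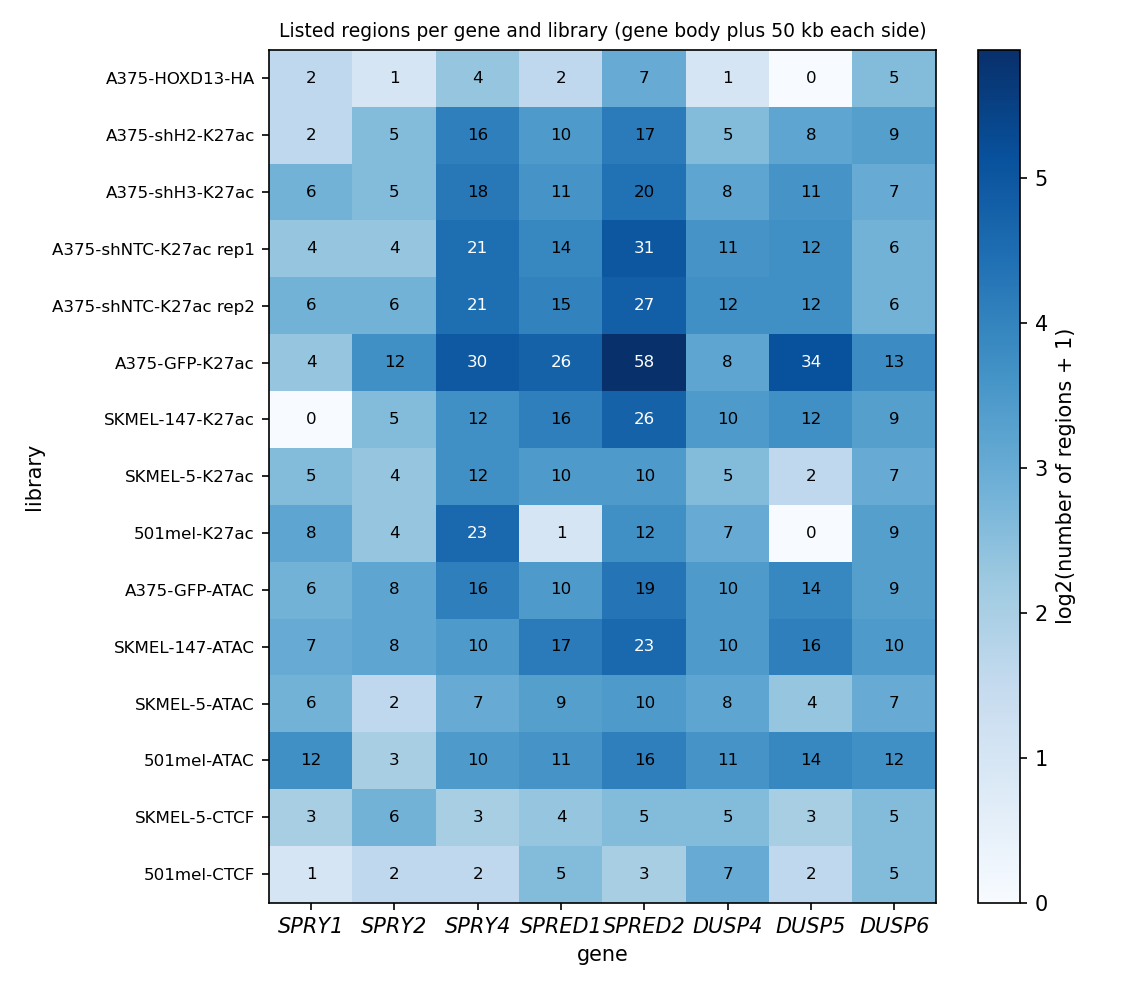
Heat map of the number of listed regions near each gene (columns) in each of the 15 libraries (rows), with the number printed in each cell and the colour showing log2 of the number plus 1. SPRED2 reached 58 K27ac regions in A375-GFP, while K27ac was at 0 for SPRY1 in SKMEL-147 and for DUSP5 in 501mel.

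**Figure D2:**
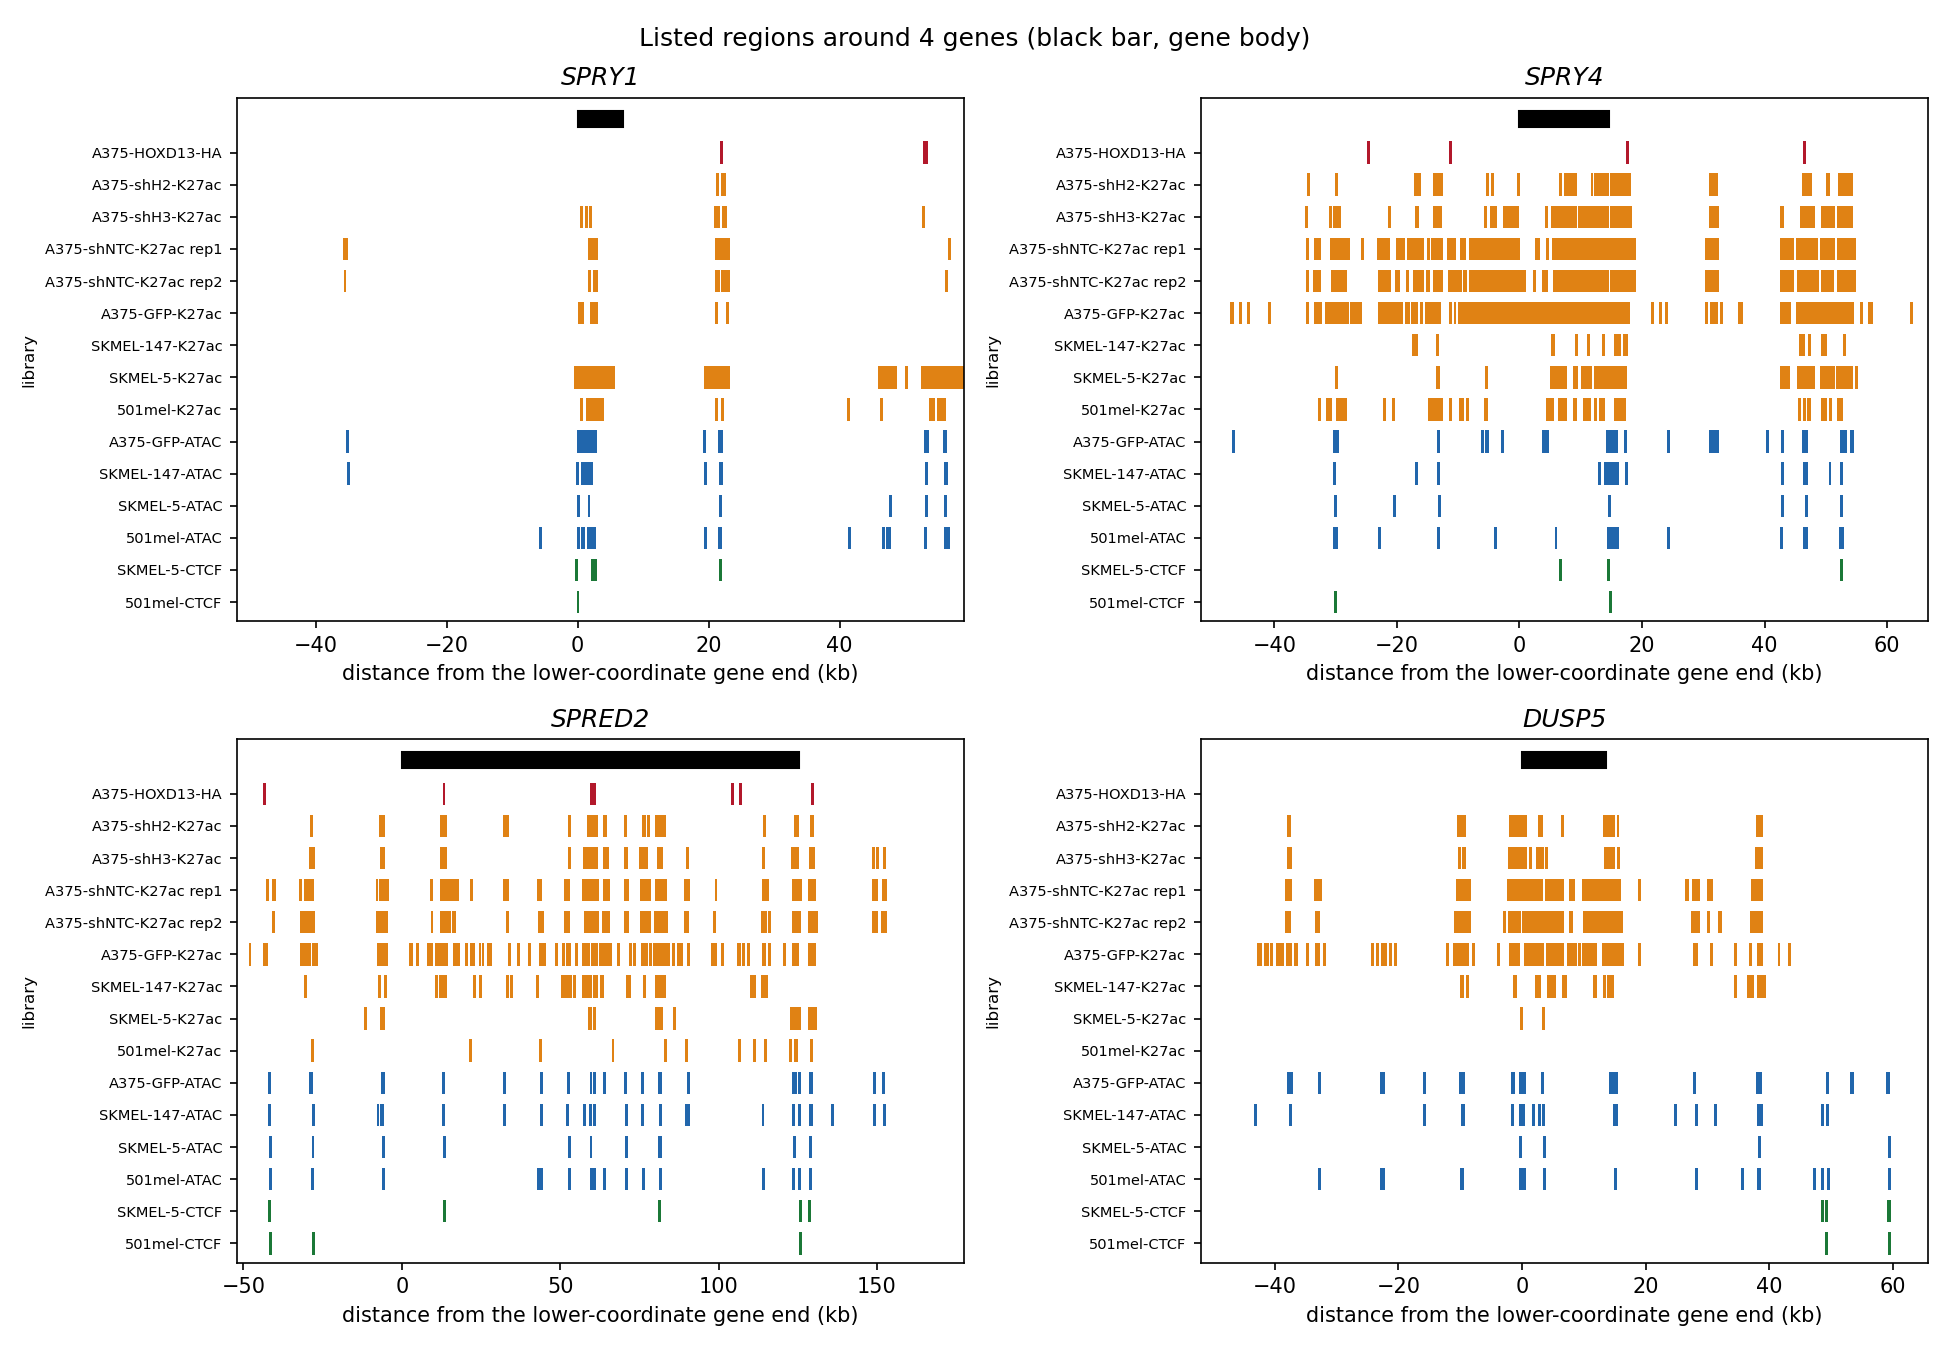
Maps of the listed regions around SPRY1, SPRY4, SPRED2 and DUSP5, with distance from the lower-coordinate gene end in kb on the x axis and libraries on the y axis (red, HOXD13-HA; orange, K27ac; blue, ATAC; green, CTCF; black bar, gene body; the narrowest regions are widened to stay visible). The K27ac lists of shH2 and shH3 covered less than those of shNTC around all 4 genes, and DUSP5 had no HOXD13-HA region.

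A gene start counted as acetylated or open when a region overlapped it or lay within 1 kb of it. Starts came from RefSeq promoter windows for 6 of the 8 genes, and either gene end was used for DUSP4 and DUSP5. K27ac was at a start in all 4 lines for 5 of the 8 genes, against a background of 10.3% of all protein-coding genes. Taken line by line, K27ac was at a start for 8 of the 8 genes in A375-GFP (53.0% of all genes), 7 in SKMEL-147 (20.3%), 8 in SKMEL-5 (46.7%) and 6 in 501mel (22.3%). The 3 others were SPRY1, without it in SKMEL-147, and SPRED1 and DUSP5, without it in 501mel. Open chromatin was at a start in all 4 lines for 7 of the 8 genes, against 55.5% of all genes, with SPRED1 in SKMEL-5 the exception. All 8 were open at a start in A375-GFP (74.3% of all genes), SKMEL-147 (73.2%) and 501mel (66.7%), and 7 in SKMEL-5 (59.3%). At the starts of SPRED1 and the ends of DUSP5 in 501mel, and at the starts of SPRY1 in SKMEL-147, open chromatin was thus listed without K27ac. K27ac lists differ in length, and a region missing from a list may lie below its calling threshold. With regions of −log10 q (the caller's adjusted p) of at least 10 alone, the counts were 2 of 8 for K27ac, against 1.57% of all genes, and 2 of 8 for open chromatin, against 31.4%.

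Sequences of 4 promoters follow because they carry the contrast between the start that HOXD13-HA covered and starts it did not. Each runs from 250 bases before to 50 bases after a start on the gene's own strand, from RefSeq (GRCh38.p14), and capitals mark matches to an ETS motif (CNGGAAG) or an AP-1 motif (TGANTCA) on either strand. ETS and AP-1 factors are the transcription factors through which ERK acts on many genes. The SPRED2 inner start lies at chr2:65366729-65367028 (minus strand) inside the gene, and the SPRED2 upstream start at chr2:65432550-65432849 (minus strand). The SPRY1 second start lies at chr4:123398136-123398435 (plus strand) and the SPRY4 start at chr5:142324198-142324497 (minus strand).
SPRED2 inner start: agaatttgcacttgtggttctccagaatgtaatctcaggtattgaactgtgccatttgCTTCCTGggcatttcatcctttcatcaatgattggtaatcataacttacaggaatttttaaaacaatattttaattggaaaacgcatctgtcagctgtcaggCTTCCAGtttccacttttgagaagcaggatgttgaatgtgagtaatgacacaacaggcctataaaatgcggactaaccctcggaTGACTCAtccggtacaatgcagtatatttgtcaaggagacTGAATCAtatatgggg
SPRED2 upstream start: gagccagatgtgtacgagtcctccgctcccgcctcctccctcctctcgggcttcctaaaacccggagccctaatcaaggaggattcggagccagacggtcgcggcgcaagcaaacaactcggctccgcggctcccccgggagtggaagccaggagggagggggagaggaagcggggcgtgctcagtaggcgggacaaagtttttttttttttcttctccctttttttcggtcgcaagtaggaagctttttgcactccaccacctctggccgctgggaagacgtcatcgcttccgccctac
SPRY1 second start: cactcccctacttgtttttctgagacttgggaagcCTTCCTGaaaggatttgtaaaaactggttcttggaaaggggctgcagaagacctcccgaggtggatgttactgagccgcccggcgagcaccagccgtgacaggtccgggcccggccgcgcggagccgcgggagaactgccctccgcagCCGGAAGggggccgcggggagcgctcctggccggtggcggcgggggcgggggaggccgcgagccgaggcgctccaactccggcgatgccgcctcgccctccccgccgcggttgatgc
SPRY4 start: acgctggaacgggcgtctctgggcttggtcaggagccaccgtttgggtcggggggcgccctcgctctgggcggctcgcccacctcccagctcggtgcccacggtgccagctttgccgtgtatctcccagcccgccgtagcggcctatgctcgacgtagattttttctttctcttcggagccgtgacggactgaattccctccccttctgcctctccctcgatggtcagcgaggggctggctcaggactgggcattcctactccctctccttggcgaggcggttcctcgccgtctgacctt
The SPRED2 inner window held AP-1 letters at 2 places, tgactca at chr2:65366778-65366784, over the start itself, and tgaatca at chr2:65366738-65366744, both inside the HOXD13-HA region. It also held ETS letters at 2 places, cttccag at chr2:65366862-65366868 inside the HOXD13-HA region and cttcctg at chr2:65366964-65366970 outside it. The SPRY1 second start held ETS letters at 2 places, and the other 2 printed windows held neither motif. No 2 of these matches overlap.

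Of the 10 promoter windows of the 6 genes with one, 5 held the ETS letters, against 36.37% of the 22132 windows of all protein-coding genes, and 1 held the AP-1 letters, against 6.149% of all. The cAMP response element TGACGTCA was in none of the 10 and in 2.259% of all. The letters CAATAAA and TCGTAAA, bound by HOX proteins of the class of HOXD13, were in none of the 10, against 2.905% and 0.5422% of all. HOXD13-HA overlapped 1 of the 10 windows, the SPRED2 inner one, against 1.28% of all windows.

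SPRY1 (chr4:123396795-123403760, plus strand) encodes a Sprouty inhibitor of receptor signals to RAS. Its K27ac covered 20.1 kb in SKMEL-5, 6.79 kb in 501mel, 2.76 kb in A375-GFP and 0 kb in SKMEL-147, where all protein-coding genes had medians of 2.70, 1.19, 6.05 and 1.33 kb. SPRY1 was thus the gene of the 8 with the least K27ac in both A375-GFP and SKMEL-147, below the median of all genes there and above it in the other lines. Open regions numbered 6 in SKMEL-5, 12 in 501mel, 6 in A375-GFP and 7 in SKMEL-147, so SKMEL-147 had open sites without listed K27ac. Of its 6 K27ac sites, formed by merging the 4 lines, 2 were in 501mel and SKMEL-5 alone, at chr4:123442703-123445556 and chr4:123449163-123455850.

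The strongest HOXD13-HA region near any of the 8 genes lay 46148 bp past SPRY1, at chr4:123449495-123450321. The authors' fold over background was 10.97 and its −log10 q 43.71, which placed it 376 of 29176 regions by fold. The place was open in all 4 lines, with folds of 5.92 in A375-GFP, 5.89 in 501mel, 8.20 in SKMEL-5 and 12.0 in SKMEL-147, each on its own list's scale. K27ac overlapped it in SKMEL-5 (chr4:123449163-123455850, fold 20.53) and in A375-shH3 (chr4:123449424-123449761, fold 4.299), and in none of the other 6 K27ac lists. A weaker HOXD13-HA region at chr4:123418596-123418787 had a fold of 3.401 and overlapped regions of 10 of the 14 other lists.

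SPRY2 (chr13:80335976-80341126, minus strand) encodes another Sprouty inhibitor. K27ac near it covered 14.7 kb in SKMEL-5, 15.6 kb in A375-GFP, 7.75 kb in SKMEL-147 and 3.38 kb in 501mel, above the median of all genes in every line. A K27ac region over its starts at chr13:80334413-80341141 had a fold of 91.47 in A375-GFP and ranked 4 of 139985 by −log10 q. In the shNTC lists of the same line, the strongest region within 1 kb of a start ranked 271 of 85977 and 329 of 80242. Of its 9 open sites, 4 were in SKMEL-147 and A375-GFP alone. Its HOXD13-HA region, chr13:80313544-80314292, had a fold of 3.325 and overlapped no region of any other list.

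SPRY4 (chr5:142310430-142325021, minus strand) encodes the Sprouty member with the longest acetylated stretch here. Its K27ac covered 63.0 kb in A375-GFP, 22.2 kb in SKMEL-5, 20.3 kb in 501mel and 8.31 kb in SKMEL-147. In A375-GFP this was more than in 99.03% of all genes. A continuous region of 28055 bp there, chr5:142300481-142328535, had a fold of 105.2 and a −log10 q of 654.4 and ranked 1 of 139985 by both. The strongest region within 1 kb of the start ranked 932 of 85977 and 2695 of 80242 by −log10 q in the A375 shNTC lists. In shNTC replicate 2 a stronger region lay just outside this limit, at chr5:142325260-142329377, with a −log10 q of 108.7, above 98.64% of that list. The first rank was thus held in the A375-GFP list and not in the shNTC lists. SPRY4 had 3 K27ac sites listed in all 4 lines and 4 HOXD13-HA regions with folds of 3.376 to 4.953.

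SPRED1 (chr15:38252836-38357249, plus strand) encodes a SPRED protein, of the type that brings neurofibromin to the membrane. Its K27ac covered 18.6 kb in SKMEL-5, 17.9 kb in A375-GFP, 7.28 kb in SKMEL-147 and 0.364 kb, a lone region away from the start, in 501mel. Open regions numbered 9 in SKMEL-5, 10 in A375-GFP, 17 in SKMEL-147 and 11 in 501mel, so open chromatin in 501mel was not low. Its HOXD13-HA regions had folds of 3.403 and 3.244, both below the list's median of 3.926. The one with the lower fold, in the gene at chr15:38339991-38340171, overlapped no region of any other list.

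SPRED2 (chr2:65307175-65432599, minus strand) had the most regions in A375-GFP, with K27ac over 54.4 kb there, 23.4 kb in SKMEL-147, 11.7 kb in SKMEL-5 and 5.52 kb in 501mel. It spans 125425 bp, which widens its window to 225.4 kb, and ACTR2 shares this window. K27ac sites in SKMEL-147 and A375-GFP alone numbered 9 of its 63. It also held 7 of the 22 HOXD13-HA regions, the most of the 8 genes. At the inner start, the HOXD13-HA region chr2:65366570-65366941 had a fold of 3.787 and a −log10 q of 17.87 and overlapped regions of 11 other lists. K27ac overlapped the promoter window there in shH2 (fold 9.08), shH3 (14.33), shNTC replicate 1 (18.94), shNTC replicate 2 (22.91) and A375-GFP (3.911), each on its own list's scale and not compared. The HOXD13-HA region of the gene with the highest fold, 6.905, at chr2:65411312-65411859, overlapped no region of any other list.

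DUSP4 (chr8:29333064-29350684) encodes a nuclear ERK phosphatase. Its K27ac covered 20.0 kb in A375-GFP, 18.3 kb in SKMEL-5, 7.35 kb in 501mel and 5.60 kb in SKMEL-147. Its HOXD13-HA region, chr8:29351375-29351627, lay 817 bp from a gene end with a fold of 4.309. K27ac overlapped it in all 8 K27ac lists, and no ATAC list had an open region over it. CTCF in 501mel overlapped it as well, at chr8:29351318-29351623 with a fold of 4.674.

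DUSP5 (chr10:110497907-110511533) encodes a nuclear phosphatase of ERK and was the gene of the 8 with no HOXD13-HA region. Its K27ac covered 31.0 kb in A375-GFP, 10.1 kb in SKMEL-147, 0.846 kb in SKMEL-5 and 0 kb in 501mel. In the 4 lines, in that order, all genes had medians of 6.05, 1.33, 2.70 and 1.19 kb, so DUSP5 lay above the median in A375-GFP and SKMEL-147 and below it in SKMEL-5 and 501mel. Open regions numbered 14 in A375-GFP, 16 in SKMEL-147, 4 in SKMEL-5 and 14 in 501mel. Of its 34 K27ac sites, 7 were in SKMEL-147 and A375-GFP alone and 0 in 501mel and SKMEL-5 alone.

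DUSP6 (chr12:89347235-89352501, minus strand) encodes the cytoplasmic ERK phosphatase. Its K27ac covered 27.9 kb in A375-GFP, 15.8 kb in SKMEL-5, 12.3 kb in SKMEL-147 and 12.3 kb in 501mel, and in each line it exceeded at least 88.08% of all genes. All 5 HOXD13-HA regions lay outside the gene, 23299 to 39692 bp away, with folds of 3.268 to 4.614. The 3 on the upstream side lay inside POC1B-DUSP6, a read-through gene annotated across DUSP6 and its neighbour POC1B, and each overlapped open chromatin and K27ac in A375-GFP. The 2 on the other side overlapped neither.

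**Figure D3:**
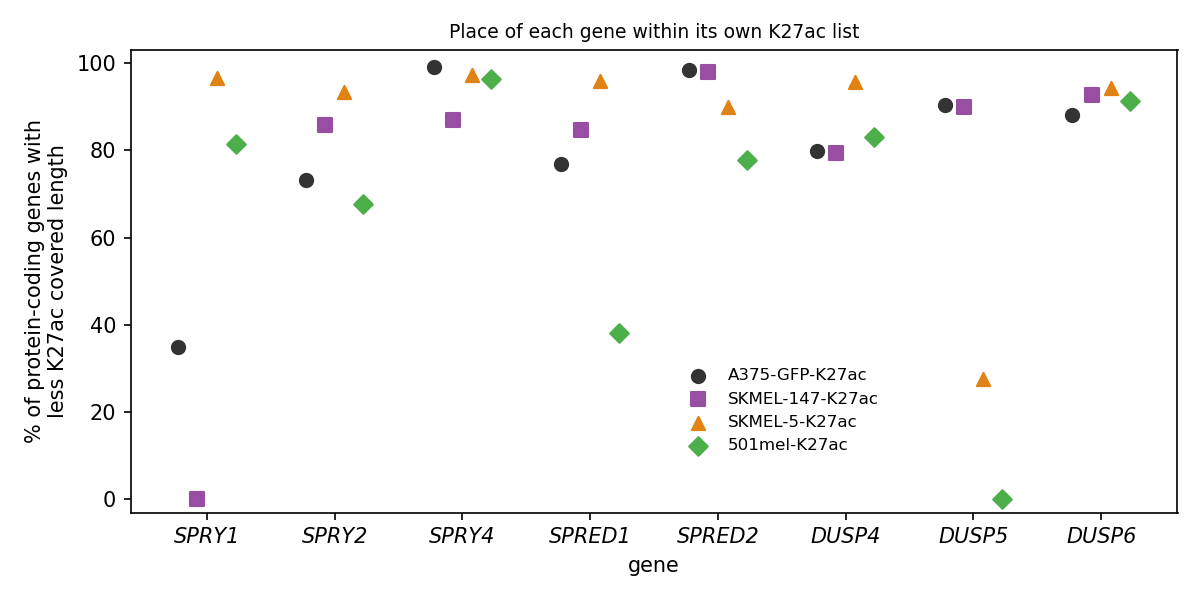
Place of each gene within each line's K27ac list, as the percentage of protein-coding genes with a smaller covered length (y axis), for the 8 genes (x axis) in the 4 lines (symbols). SPRY2, SPRY4, SPRED2, DUSP4 and DUSP6 lie at 67.77% or higher in every line, while SPRY1, SPRED1 and DUSP5 fall below 40% in at least 1 line.

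Across the 8 genes, the lines shared open sites more often than K27ac sites. Regions of the 4 lists merged into 139 open sites, of which 38 (27.34%) were listed in every line, against 14.7% of all open sites. Open sites in SKMEL-147 and A375-GFP alone numbered 16 (11.51%), against 13.1% of all open sites. Those in 501mel and SKMEL-5 alone numbered 3 (2.158%), against 1.46% of all. The 199 K27ac sites included 10 (5.025%) listed in every line, against 2.89% of all. Sites in SKMEL-147 and A375-GFP alone made up 20 of the 199 (10.05%), against 6.44% of all, and sites in 501mel and SKMEL-5 alone 4 (2.01%), against 2.10% of all. SPRED2 and DUSP5 gave 16 of the 20. A375-GFP, the longest K27ac list, held 109 of the 199 sites alone (54.77%), against 43.96% of all. With −log10 q of at least 10, 9 of 104 open sites (8.654%) were listed in every line, against 9.085% of all.

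CTCF, known for bounding chromatin loops, was listed near all 8 genes in both lines examined. The 40 CTCF sites included 20 shared by 501mel and SKMEL-5 (50%), against 49.3% of all CTCF sites. SPRED1 had 4 of 5 sites shared, DUSP4 5 of 7 and DUSP6 4 of 6, while SPRY2 had 1 of 6, with 5 listed in SKMEL-5 alone. CTCF lay within 1 kb of a start for 7 of the 8 genes in 501mel, against 33.5% of all genes, and for 6 of 8 in SKMEL-5, against 39.8%. DUSP5 had none there in either line.

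HOXD13-HA regions were listed near 7 of the 8 genes, against 60.2% of all protein-coding genes. They numbered 7 at SPRED2, 5 at DUSP6, 4 at SPRY4, 2 each at SPRY1 and SPRED1, 1 each at SPRY2 and DUSP4, and 0 at DUSP5. Of the 22, 6 lay in a gene body, 18 had the gene itself as the nearest protein-coding gene, and 2 of the 8 genes (SPRED2 and DUSP4) had one within 1 kb of a start, against 4.32% of all genes. Folds were not high for the list: the median was 3.748, against 3.926 over all regions. The SPRY1 region alone exceeded the list's 95th percentile of 7.83. With −log10 q of at least 10, 6 regions at 4 of the genes remained.

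**Figure D4:**
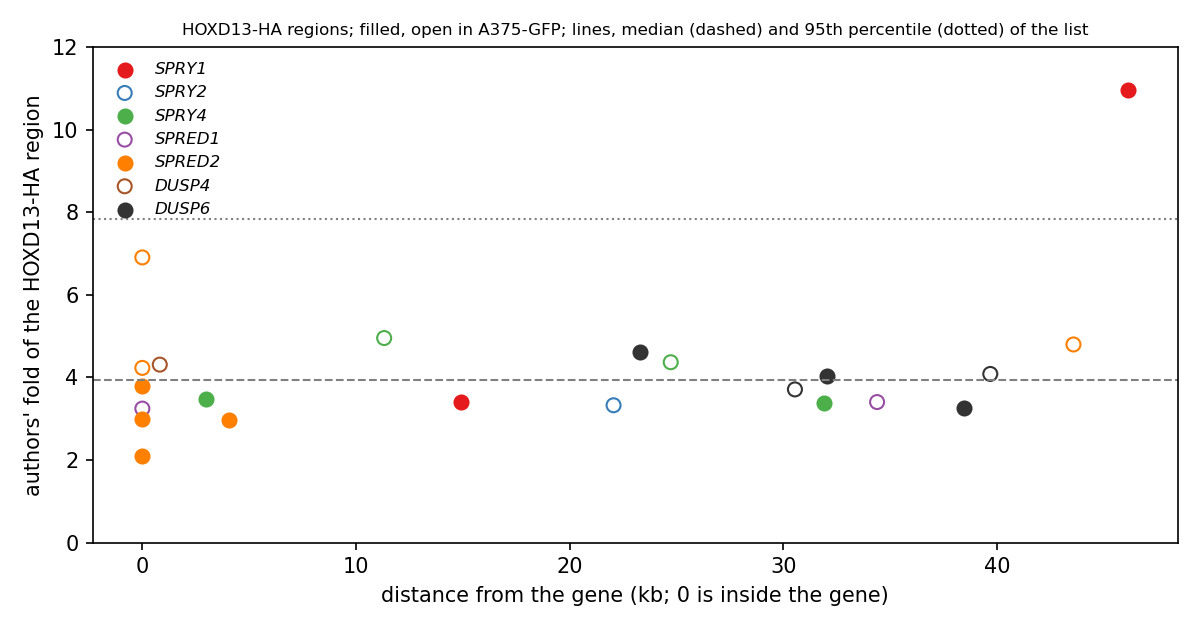
The 22 HOXD13-HA regions by distance from the gene in kb (x axis, 0 inside the gene) and the authors' fold (y axis), coloured by gene, filled where A375-GFP chromatin was open. Dashed and dotted lines mark the median (3.926) and 95th percentile (7.83) of all HOXD13-HA regions, and the SPRY1 region at 46148 bp lies alone above the dotted line.

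The HOXD13-HA regions near these genes overlapped A375 chromatin marks at a higher share than the list as a whole. Open chromatin of A375-GFP overlapped 11 of the 22, against 34.1% of all HOXD13-HA regions. K27ac of A375-GFP overlapped 14, against 22.2% of all, and both marks overlapped 9, against 14.8%. Neither mark overlapped 6, against 58.5%. K27ac of A375-GFP also covered more than the median of all genes at 7 of the 8 genes, and its part in these shares was not tested. Of the 22, 5 overlapped none of the 14 other lists, against 45.5%; these were at SPRY2, SPRY4, SPRED1, SPRED2 and DUSP6. The ATAC and K27ac libraries came from A375-GFP and not from the HOXD13-HA cells.

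The K27ac lists of shH2 and shH3 were set against those of shNTC; the design text names silencing of HOXD13, and the labels do not tie it to these hairpins. Covered length was lower in both hairpin libraries than in both shNTC replicates for all 8 genes, against 92.8% of all genes with shNTC K27ac. For 0 of the 8 were both hairpin values above both shNTC values, against 0.324% of genes. The sum over the 8 genes was 91.8 kb in shH2 and 126.3 kb in shH3, against 220.2 and 209.0 kb in shNTC replicates 1 and 2. The ratio of the hairpin mean to the shNTC mean was 0.508, while over the whole lists it was 0.426. The median of the 8 gene ratios was 0.475, against 0.379 over 17928 genes. The K27ac lists of shH2 and shH3 were shorter as wholes, with 43634 and 51838 regions against 85977 and 80242 in shNTC. With lists of equal length the ratio was 0.561 for the 8 genes and 0.52 over the whole lists.

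By gene, SPRY4 K27ac covered 19.0 kb in shH2 and 31.5 kb in shH3, against 53.26 and 51.98 kb in shNTC. SPRED2 covered 18.83 and 24.03 kb in shH2 and shH3, against 48.7 and 45.7 kb in shNTC. DUSP5 had the lowest ratio of the 8, 0.372, with 9.65 and 9.54 kb in shH2 and shH3, against 26.3 and 25.3 kb in shNTC. DUSP6 had the highest, 0.741, with 17.97 and 21.95 kb in shH2 and shH3, against 27.1 and 26.8 kb in shNTC. The other ratios were 0.471 for SPRY1, 0.671 for SPRY2, 0.434 for SPRED1 and 0.553 for DUSP4. The shH3 library covered more than shH2 at every gene except DUSP5, where they were close to each other.

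**Figure D5:**
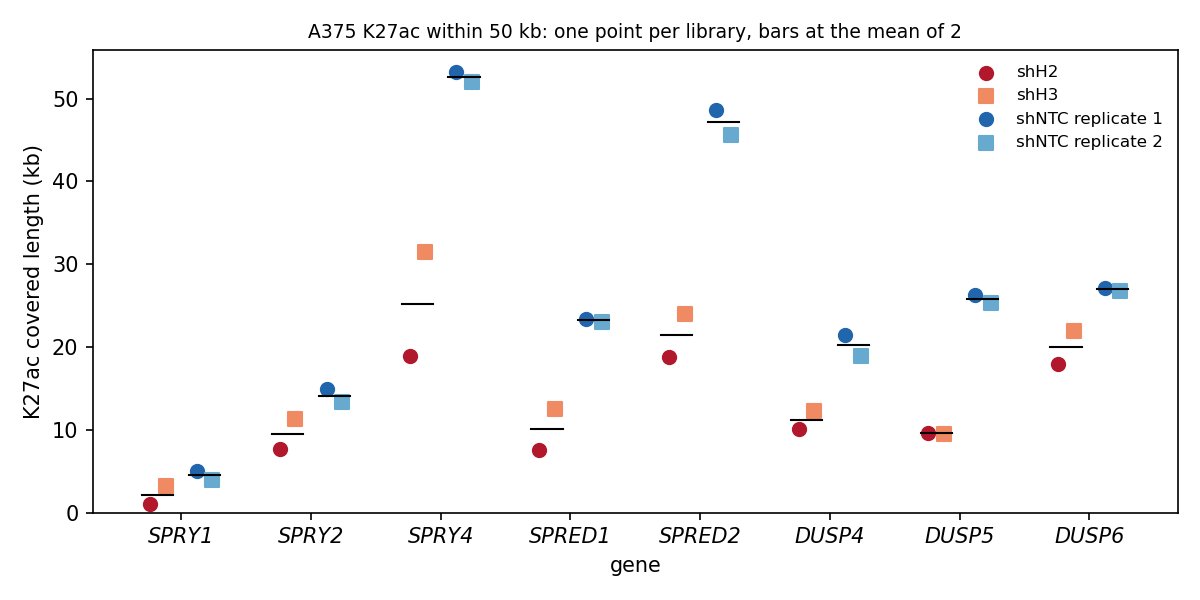
K27ac covered length in kb (y axis) near each of the 8 genes (x axis) in the A375 shH2 and shH3 libraries, left, and shNTC replicates 1 and 2, right, with 1 point per library and a bar at the mean of each pair. All hairpin points lie below both shNTC points of the same gene, and DUSP6 has the smallest drop in proportion.

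Regions listed in both shNTC replicates were merged, which gave 84 near the 8 genes. Of these, 28 (33.33%) overlapped a region of neither hairpin list, against 37.1% of all such regions, so the share was near the background. Counted for 1 hairpin at a time, 38 (45.24%) were missing in shH2, against 52.2% of all, and 29 (34.52%) in shH3, against 42.7%. Missing regions were found at 7 of the 8 genes, against 70.7% of all genes. They numbered 7 of 24 at SPRED2, 6 of 19 at SPRY4, 5 of 10 at DUSP4, 4 of 10 at SPRED1, 4 of 9 at DUSP5, 1 of 3 each at SPRY1 and SPRY2, and 0 of 6 at DUSP6. All of a gene's shared regions were missing at 0 of the 8 genes, against 4.30% of all genes with such regions. When all lists were cut to an equal number of their strongest regions, 9 of 55 were missing (16.36%), against 16.39% of all. Without shNTC replicate 1, 43 of 105 regions were missing (40.95%), against 45.45% of all, and without shNTC replicate 2, 43 of 103 (41.75%), against 48.4% of all.

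The missing regions were weak and narrow. Their median −log10 q, averaged over the shNTC replicates, was 5.59, against 25.7 for the 56 that remained, and their median width 976.5 bp, against 2905 bp. Over all such regions of the lists, the median −log10 q was 4.585 for missing and 14.95 for remaining ones, and the median width 732 and 1583 bp. Open chromatin of A375-GFP overlapped 9 of the 28 missing regions and 50 of the 56 remaining ones, against 42.49% and 91.74% over the lists. Among the missing regions, the highest −log10 q values were 16.5 at chr10:110464236-110465501 and 12.4 at chr10:110525243-110526739, both near DUSP5, and 10.5 at chr15:38266244-38267098 in SPRED1. At DUSP4, 4 of the 5 missing regions lay next to each other over the lower-coordinate end of the gene and its flank, from 29331218 to 29339108 on chromosome 8. The regions over the other end of DUSP4 remained.

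At 5 of the 8 genes, the strongest region within 1 kb of a start was narrower in both hairpin than in both shNTC lists. These were SPRY2, SPRY4, SPRED1, DUSP5 and DUSP6. The share of all genes with this pattern was not counted, so the 5 of 8 has no background here. At DUSP5 the hairpin regions lay at the lower-coordinate gene end and the shNTC regions at the other end. At DUSP6 the hairpin and shNTC regions lay on opposite sides of the start. For DUSP5 and DUSP6 the widths are therefore those of different regions. The lists as wholes were narrower too, with median widths of 571 bp in shH2 and 640 bp in shH3, against 741 and 766 bp in shNTC. At the SPRY4 start the strongest K27ac region was 2381 bp wide in shH2 and 4988 bp in shH3, against 13711 and 9117 bp in shNTC. In shNTC replicate 1 that region ran unsplit to 18.98 kb from the lower-coordinate gene end. The shNTC replicate 2, shH2 and shH3 lists split this stretch, with a further region from 14.83, 14.86 and 14.84 kb on. The SPRY4 widths therefore set parts of a split stretch against an unsplit one. At the SPRED1 start it was 1483 bp in shH2 and 3268 bp in shH3, against 6440 and 6145 bp in shNTC. The SPRY2 region was 3634 bp in shH2 and 6547 bp in shH3, against 8440 and 7082 bp in shNTC. At DUSP4 the strongest region was wider, 3552 bp in shH2 and 4994 bp in shH3, against 2238 and 2271 bp in shNTC, where it lay on the other side of the gene end. The widths overlapped at SPRED2, where the strongest region of shNTC replicate 1 lay at the upstream start and the others at the inner start. At the inner start, the regions of shH2 (3535 bp) and shH3 (3797 bp) both lay inside the region of each shNTC replicate. K27ac was listed within 1 kb of a start in both hairpin and both shNTC libraries for 7 of the 8 genes, against 39.8% of all genes. By library, 7 of the 8 genes had it in shH2 (40.7% of all genes) and 8 in shH3 (51.9%), against 8 in shNTC replicate 1 (58.3%) and 8 in shNTC replicate 2 (56.9%). SPRY1 was the exception, with none in shH2, while its regions in shNTC were among the weak ones, with −log10 q of 5.03 and 4.14.

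HOXD13-HA regions were set beside the missing K27ac regions. Of the 22 HOXD13-HA regions, 13 overlapped K27ac of both shNTC replicates, against 24.9% of all HOXD13-HA regions. Of those 13, 10 overlapped K27ac of both hairpin lists and 1 overlapped neither, against 25.0% overlapping neither over all. The share over all that overlapped both hairpin lists was not counted, so the 10 has no background here. That 1 was the SPRY4 region chr5:142298965-142299256 (fold 4.953), in the K27ac region chr5:142298670-142300998. Regions with HOXD13-HA made up 1 of the 28 missing K27ac regions (3.571%), against 5.784% of all missing ones, and 11 of the 56 remaining (19.64%), against 14.15% of all remaining ones.

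No K27ac region near the 8 genes was present in both hairpin lists and absent from both shNTC lists, of 58 shared by the hairpins, against 1.85% of all such regions. Of all protein-coding genes, 2.99% had such a region within 50 kb. In shH3 alone, 4 of 86 regions (4.651%) were absent from both shNTC lists, against 8.204% of all, 3 at SPRY1 and 1 at SPRY2, with −log10 q of 3.02 to 5.45. The SPRY1 region at chr4:123449424-123449761 was the one that overlapped HOXD13-HA.

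Other genes of the pathway and other inhibitor genes were counted in the same way. The background was 60.2% of genes with a HOXD13-HA region, 37.1% of shNTC K27ac regions missing and a median covered-length ratio of 0.379. Of 13 other genes listed as negative regulators of signalling, 7 had HOXD13-HA regions. The highest folds were at RASA1 (7.06), NF1 (5.671), DUSP16 (5.461) and ERRFI1 (5.456). Whether ERK induces these 13 genes was not examined. RASA1 and NF1 encode proteins that switch RAS off. Among the 13 genes 38.1% of shNTC K27ac regions were missing with both hairpins. Most of them were at NF1 (12 of 23), RASA1 (10 of 14), DUSP7 (6 of 14) and ERRFI1 (3 of 10). Of 12 ERK output genes, 8 had HOXD13-HA regions, led by EPHA2 (10.84), ETV4 (9.938), IER3 (7.877) and EPHA4 (7.005). Among the 12 genes 32.04% of regions were missing. Most of them were at EPHA2 (7 of 16), FOSL1 (6 of 14), ETV4 (4 of 8) and CCND1 (3 of 11). Of 14 genes of the RAS to ERK cascade, 6 had HOXD13-HA regions, led by MAP2K1 (6.682), which encodes a MEK kinase, SOS1 (4.885) and GRB2 (4.85). There 38.14% of regions were missing, with 11 of 20 at GRB2, 6 of 13 at MAP2K1 and 5 of 13 at MAPK3. The median covered-length ratios of the lists were 0.425, 0.482 and 0.342 in that order, beside 0.475 for the 8 genes. No gene of these lists had K27ac above both shNTC libraries in both hairpin libraries.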

How the data were processed

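The 15 region lists and their summits were made by the authors and used as deposited, on hg38. Trim Galore, Bowtie2, SAMtools, MACS2 and deepTools are named, without versions or settings, per the submitters' processing notes, and control libraries and pooling are not given in the sources used here. The labels' extract protocol describes RNA libraries. Each deposited list gives a score (10 times the −log10 q, cut to a whole number), the authors' fold enrichment at the summit (a ratio), and the authors' −log10 p and −log10 q. Regions were ranked and filtered by these values within a list, except that the −log10 q of a K27ac region shared by the shNTC replicates is the mean of both. Regions on the autosomes and X were kept and called shared at an overlap of 1 bp or more.

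Genes came from the RefSeq table for GRCh38.p14. Windows, merged sites, covered length and motif matches were computed in Python 3.11.15 (numpy 2.4.6, pandas 2.3.3), and the scripts were tested on simulated regions. Groups followed the labels. The 8 genes, the other gene lists and the markers were chosen with earlier results of these data known. All 8 genes are named, and from each other list the 4 genes with the highest HOXD13-HA fold and the 4 with the most missing regions, of which some are not reported here. Alternatives covered the window, q, overlap, list length and replicates.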

Additional observations from a re-analysis of the deposited data

How the results depend on the processing

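Of 58 alternatives, 36 left a result within its margin (1.5 times for a count, 1 SD for the ratio) and 22 moved it. That SD, 0.094, is taken over the ratios of each hairpin library to each shNTC library. Ratios from a single hairpin or a single shNTC replicate were therefore bound to stay within it, and their label carries no information. Reversal against the background was not scored. With −log10 q of at least 10, open sites in every line fell below the share of all sites (8.654% against 9.085%). CTCF sites in both lines did so too (42.11% against 50.66%), and also with lists of equal length (45.45% against 51.62%). With a window of 10 kb, HOXD13-HA regions numbered 9 at 4 genes, 5 of them open in A375-GFP, 16 K27ac regions were missing with both hairpins, and the sites shared by all lines were 5 for K27ac, 19 for open chromatin and 12 for CTCF. With a window of 100 kb, HOXD13-HA regions numbered 38. With −log10 q of at least 10, the values were 6 HOXD13-HA regions at 4 genes, 4 of them open, 8 missing K27ac regions, 3 shared K27ac sites, 9 open sites and 8 CTCF sites, with 2 genes acetylated and 2 open at a start in all 4 lines. Requiring the region to overlap the start itself left 1 gene acetylated in all 4 lines. With lists of equal length, 9 K27ac regions were missing. In shH3 alone 4 regions were present that both shNTC lists lacked. Without shNTC replicate 1 or replicate 2, missing regions numbered 43 to 43, regions present in the hairpins alone 0 to 0, and the covered-length ratio 0.495 to 0.522. The alternatives that used shNTC for A375, or left out the 501mel or SKMEL-5 ATAC list, were chosen after seeing the data and moved no count beyond the margin. No paired analysis was possible because shNTC is the group with replicate numbers and no test was made. Depth is unknown for every library, so a region absent from a list may be one that was not detectable there.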

Other observations

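The profile of each gene over the 15 lists (log2 of its number of regions plus 1, minus the mean of all genes in that list) was set beside those of all other genes outside its window. The gene most like it by Pearson's r over the 15 lists was GPRC5A for SPRY4 (r = 0.940), EVI2A for SPRED2 (0.972), NDUFS6 for DUSP5 (0.949), ARHGAP12 for SPRED1 (0.939), TMEM14C for DUSP4 (0.9004), SLC25A28 for DUSP6 (0.891), CPVL for SPRY1 (0.863) and TAPT1 for SPRY2 (0.849). Among the 8 genes themselves, the pair with the highest r was SPRY4 and SPRED2 (0.862), and the pair with the lowest was SPRY1 and DUSP5 (−0.556). The lists share lines and assays and their depth is unknown, so these values describe the 15 libraries and carry no test.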
